A study of Homo sapiens with 28 samples.

Results

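A set of 10 chemokine genes was followed as 4 cell lines of human liver cancer grew as tumours on the chick embryo and as cultures. The genes are CXCL1, CXCL2, CXCL3, CXCL5, CXCL8, CCL2, CCL20, CCL22, CXCL16 and CX3CL1, taken by gene symbol from the 18961 amplicons of the deposited table. All 10 were on the panel, and 9 of them passed the expression filter and were tested, among 13100 genes tested in all. CCL2 did not pass.

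Of the lines, Hep3B, HuH7 and PLC/PRF/5 come from carcinomas of the liver and HepG2 from a hepatoblastoma. In ovo, cells of each line were placed on the chorioallantoic membrane of fertilised white leghorn eggs at embryonic day 9, and the tumours were taken at day 18 (n = 4 libraries per line). In vitro, the same lines were grown as cultures (n = 3 per line), which gives 28 libraries in all, made from 500 ng of total RNA with targeted amplicons. RNA was purified with a midi column kit from tumours and a mini column kit from cultures, so kit and condition cannot be told apart. As the labels do not tie replicates to separate eggs or cultures, each p value measures only how these libraries spread, and that spread may be technical.

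Depth was 6085750 to 15086465 reads in the tumours and 6205368 to 8662998 in the cultures. Levels are CPM after TMM scaling, called scaled CPM here, as mean ± SD. They compare a gene between libraries and not 1 gene with another, because each amplicon is amplified on its own. A count of 3 reads was taken as the floor of a library, which is 0.252 to 0.777 scaled CPM and covers counting error only, since these reads carry no molecular identifiers. Fold changes are in ovo minus in vitro on the log2(scaled CPM + 1) scale, which understates the change of low genes, and calls were made with limma at an adjusted p under 0.05. Tumour libraries were less alike than cultures, with a mean correlation to their own group of 0.914 to 0.984 in ovo and 0.991 to 0.996 in vitro. The lowest were the tumours numbered 3 of HuH7 and HepG2. Of 391 olfactory receptor amplicons, 5.63% to 51.7% had a read in a tumour library, against 2.05% to 7.67% in a culture library. Rises in tumours that rest on few reads are to be read beside this difference, whose cause was not tested. Against the liver label, 3 of 14 hepatocyte markers were at 0 in all PLC/PRF/5 cultures, albumin (ALB) among them, and each of the 14 was read in at least 1 of its tumours. The summed level of these markers was 844 to 2230 scaled CPM in PLC/PRF/5 tumours and 23.5 to 31.3 in its cultures. In the other lines all 14 were read in both settings.

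Chemokines are small secreted proteins that draw leukocytes along a gradient through G protein-coupled receptors. CXC chemokines with a glutamate-leucine-arginine (ELR) motif before the paired cysteines, here CXCL1, CXCL2, CXCL3, CXCL5 and CXCL8, act on CXCR1 and CXCR2 and recruit neutrophils, and their genes stand close together on chromosome 4. CCL20 acts on CCR6, CCL22 on CCR4 and CCL2 on CCR2. CXCL16 and CX3CL1 are made as membrane-anchored proteins that ADAM10 and ADAM17 can cut free. Many of these genes are induced by inflammatory cytokines through the transcription factor NF-kB.

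The question posed by the design is how each line's expression differs between tumour and dish. In Hep3B tumours 6 of the 9 members tested fell and 0 rose, where 27.4% of all 13100 genes fell and 24.6% rose. In HuH7 tumours 4 members fell and 3 rose, beside 19.8% and 23.6% of all genes. In HepG2 tumours 3 fell and 0 rose, beside 13.0% and 12.1%. In PLC/PRF/5 tumours 2 members rose and 0 fell, beside 11.9% and 5.61%. The 2 were CCL22 and CX3CL1, and the reads of CX3CL1 there are qualified below. The median log2 fold change of the members was -1.91 in Hep3B and 0.53 in PLC/PRF/5, beside -0.05 and 0.07 over all genes. It was 0.00 for HuH7 and for HepG2, beside 0.01 and -0.02. The median is the value of 1 gene, however. In HuH7 that gene was CCL22, with at most 2 reads in a library, and in HepG2 CXCL1, with 0 reads. Those medians therefore do not show that the members were unchanged. In PLC/PRF/5 it was CCL20, on 23 reads over the tumours and 3 over the cultures. Scaling on total reads alone, which moved the median of all genes in Hep3B by -0.82, gave 7 members lower and 0 higher there. In bulk RNA such as this, fewer cells that express a gene and less RNA per cell cannot be told apart. The interaction of line with condition was called for 9 of 9 members, against 41.8% of all genes. A member hardly read in a line's cultures cannot fall there, so this test also reflects which lines express it. CXCL1 had 0 reads in HepG2 and PLC/PRF/5, and CXCL5 had at most 4 and 3 reads in a library of these lines.

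**Figure D1:**
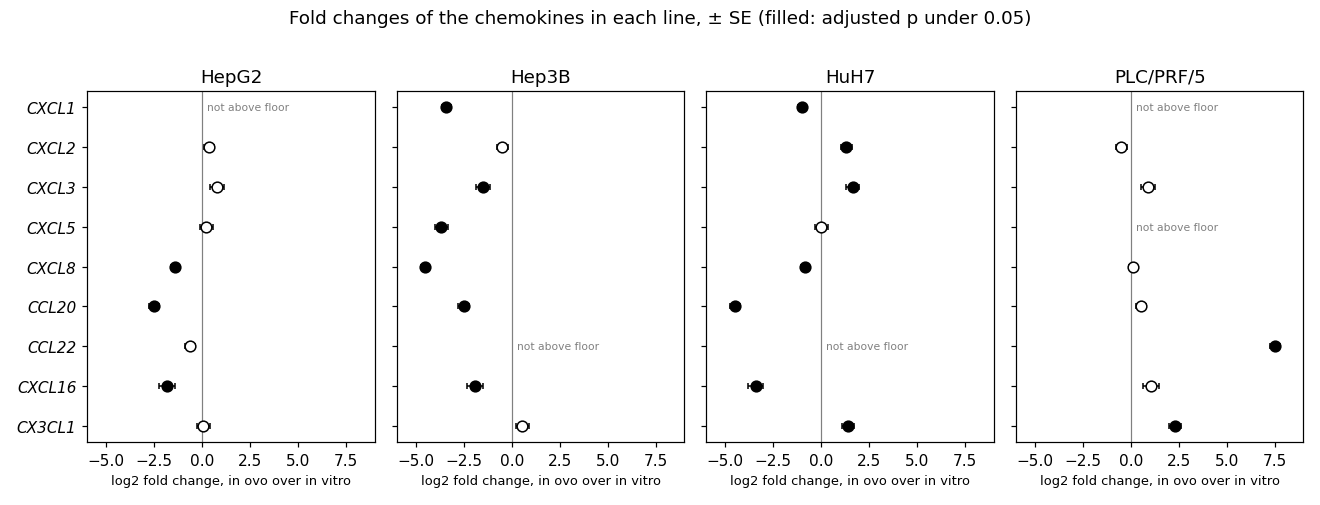
Log2 fold change, in ovo over in vitro, of the 9 tested chemokines in each line, with SE bars (n = 4 tumours and 3 cultures per line). Filled points passed an adjusted p of 0.05, and no point is drawn where no library of the line had more than 3 reads. CCL20, CXCL8 and CXCL16 lie to the left in HepG2, Hep3B and HuH7, and CCL22 lies far to the right in PLC/PRF/5 alone.

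The ELR genes share a word in their promoters, so the stretches that hold it are shown first. The letters GGAATTTCC, of the kind bound by NF-kB, were searched on both strands of RefSeq promoter windows (GRCh38.p14, 250 bases before to 50 after each gene's start). The word was in 0.461% of 35116 windows and in 5 of the 7 windows held for the members, those of the 5 ELR genes. It starts 77 to 91 bases before the gene start. Each stretch below runs from 30 bases before the word to 30 after it, on the gene's strand, with the word in capitals. Those of CXCL1, CXCL2 and CXCL3 are nearly alike, so the 5 windows are not independent cases to set against the share of all windows.
CXCL1 (chr4:73869285-73869353, plus strand): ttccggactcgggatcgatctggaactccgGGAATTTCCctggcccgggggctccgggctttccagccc
CXCL2 (chr4:74099234-74099302, minus strand): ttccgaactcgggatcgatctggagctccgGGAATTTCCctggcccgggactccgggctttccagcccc
CXCL3 (chr4:74038729-74038797, minus strand): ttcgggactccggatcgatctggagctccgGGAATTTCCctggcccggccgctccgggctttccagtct
CXCL5 (chr4:73998729-73998797, minus strand): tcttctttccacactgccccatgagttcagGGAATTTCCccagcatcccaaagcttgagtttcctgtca
CXCL8 (chr4:73740448-73740516, plus strand): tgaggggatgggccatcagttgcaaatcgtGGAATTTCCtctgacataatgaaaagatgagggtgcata
The looser word GGAANTTCC, which contains the first, was in 0.965% of windows and in the same 5 members. A longer form, GGG, then 3 free bases, then TTCC, which can overlap both, was in 6.52% of windows and in 5 members, CXCL1, CXCL2, CXCL3, CXCL5 and, 79 bases before its start, CCL20. The AP-1 word TGANTCA was in 7.71% of windows and in that of CXCL8, 137 bases before its start. The window of CCL22 held none of these letters. The values of these 5 genes follow by line.

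In Hep3B tumours 4 of the 5 ELR genes fell. CXCL8, also known as interleukin 8, had 0.533, 0.504, 0.259 and 0.462 scaled CPM in the 4 tumours, against 33.6, 30.8 and 33.1 in the 3 cultures (log2 fold change -4.54 ± 0.193 SE, limma adjusted p = 3.13e-15). Those tumour levels rest on 5, 2, 1 and 2 reads, so all but replicate 1 were at or under the floor of 3 reads. By size, CXCL8 ranked 12 among the genes that were lower in Hep3B tumours, of 13100 tested.

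CXCL5, a neutrophil attractant best known from epithelial cells, had 4.47, 10.6, 15.3 and 4.85 scaled CPM in Hep3B tumours, against 117, 108 and 112 in cultures (log2 fold change -3.68 ± 0.336, adjusted p = 4.60e-09). CXCL1 had 0.106, 0, 0.777 and 0.462 scaled CPM in these tumours, against 13.9, 11.5 and 13.5 in cultures (log2 fold change -3.41 ± 0.225, adjusted p = 1.21e-11). No tumour of Hep3B reached the level of any of its cultures in these genes.

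CXCL3 fell less in Hep3B. It had 10.2, 40.5, 45.8 and 12.3 scaled CPM in the tumours, against 66.6, 64.6 and 60.9 in the cultures (log2 fold change -1.49 ± 0.355, adjusted p = 0.00133). The tumours split into a low pair, replicates 1 and 4, and a higher pair. CXCL2 averaged 1.26 ± 0.647 scaled CPM in Hep3B tumours and 2.09 ± 0.325 in cultures, the groups overlapped, and the difference was not called (log2 fold change -0.49 ± 0.275, adjusted p = 0.141). It passed on total reads alone, where the groups did not overlap (-0.96, adjusted p = 0.00188), and without the tumours numbered 3 (-0.55, adjusted p = 0.0455).

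HuH7 went in both directions. CXCL3 had 24.7, 34.3, 47.7 and 23.7 scaled CPM in HuH7 tumours, against 10.02, 8.99 and 9.34 in cultures (log2 fold change 1.63 ± 0.355, adjusted p = 0.000797). CXCL2 had 1.54, 3.01, 5.73 and 1.29 scaled CPM in the tumours, against 0.405, 0.439 and 0.440 in the cultures (log2 fold change 1.31 ± 0.275, adjusted p = 0.000568). Every tumour was above every culture in both genes, with tumour replicate 3 the highest. The rise of CXCL3 was not called once trends with amplicon GC content and length were removed (log2 fold change 0.94, adjusted p = 0.112).

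CXCL1 and CXCL8 fell in the same HuH7 tumours. CXCL1 had 2.57, 6.02, 1.69 and 4.29 scaled CPM in the tumours, against 8.90, 6.25 and 8.35 in the cultures (log2 fold change -1.01 ± 0.225, adjusted p = 0.000958). Its call was lost in edgeR's count test (adjusted p = 0.0715) and when HuH7 was fitted alone (adjusted p = 0.0519). CXCL8 averaged 3.20 ± 0.200 scaled CPM in HuH7 tumours and 6.62 ± 0.874 in cultures (log2 fold change -0.85 ± 0.193, adjusted p = 0.00114), with no overlap. CXCL5 averaged 30.2 ± 16.2 scaled CPM in tumours and 27.2 ± 0.494 in cultures, and its tumours ranged from 14.9 to 52.8 on both sides of the cultures.

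In PLC/PRF/5 no ELR gene was called. CXCL3 had 162, 109, 144 and 155 scaled CPM in the tumours, against 86.8, 58.1 and 82.7 in the cultures. All 4 tumours were above all 3 cultures, but the log2 fold change of 0.90 ± 0.355 did not pass (adjusted p = 0.0811), and it did pass in a fit of this line alone (adjusted p = 0.00957). CXCL2 averaged 7.30 ± 0.937 scaled CPM in tumours and 10.7 ± 1.42 in cultures (log2 fold change -0.49 ± 0.275, adjusted p = 0.239), with every tumour below every culture. CXCL8 averaged 4.05 ± 0.990 scaled CPM in tumours and 3.64 ± 0.355 in cultures, and the groups overlapped. CXCL1 had 0 reads in all 7 libraries, and CXCL5 had at most 3.

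HepG2 had low ELR levels throughout. CXCL8 averaged 0.152 ± 0.217 scaled CPM in its tumours (1, 0, 0 and 3 reads) and 2.14 ± 0.769 in its cultures (9, 22 and 22 reads), and it fell (log2 fold change -1.43 ± 0.193, adjusted p = 3.82e-06). CXCL3 had 0.745, 1.44, 1.18 and 1.54 scaled CPM in tumours, against 0.282, 0.370 and 0.223 in cultures, which had 2 or 3 reads each. That difference was not called (log2 fold change 0.77 ± 0.355, adjusted p = 0.116), but it was in edgeR's count test (adjusted p = 0.0279). CXCL2 had 8 reads over the 4 tumours and 1 over the 3 cultures, a ratio per read of depth of 6.72 with an exact 95% counting interval of 0.901 to 298. CXCL5 had 5 reads in tumours and 1 in cultures (ratio 4.2, interval 0.470 to 199), and CXCL1 had 0 reads in all 7 libraries.

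**Figure D2:**
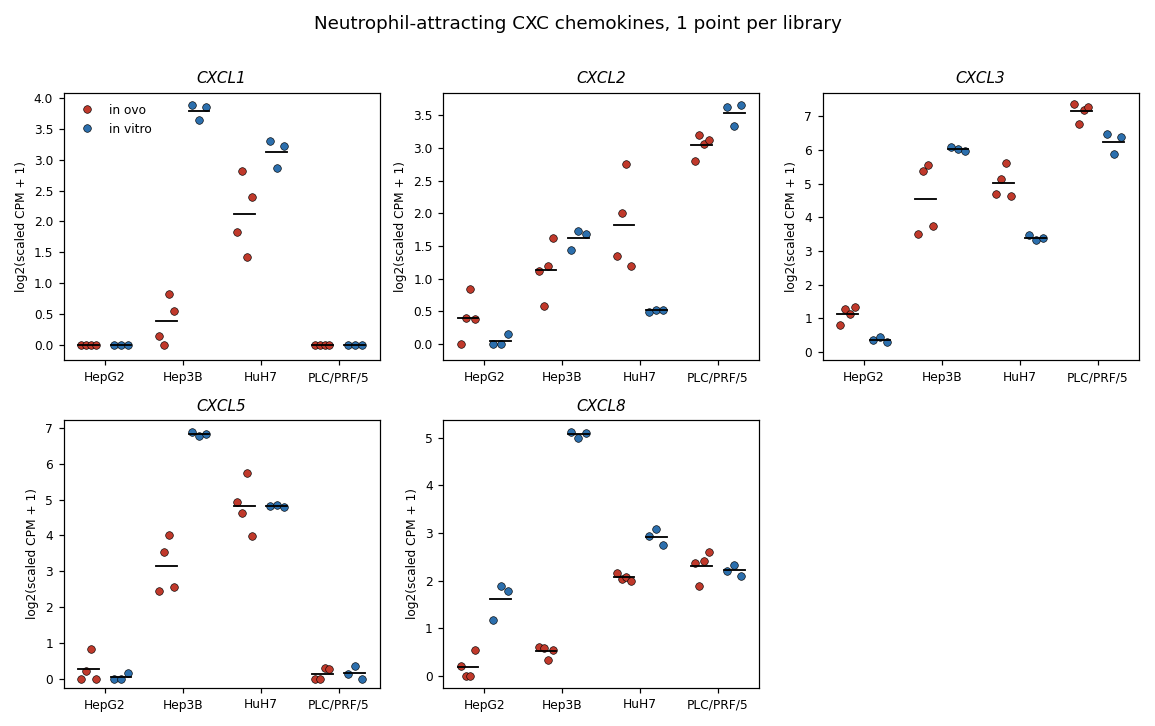
Levels of the 5 ELR chemokines in each library as log2(scaled CPM + 1), by line, with tumours (in ovo, n = 4) to the left of cultures (in vitro, n = 3) and bars at group means. Hep3B tumours lie below its cultures in CXCL1, CXCL3, CXCL5 and CXCL8, whereas HuH7 and PLC/PRF/5 tumours lie above theirs in CXCL3.

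Lines ranked differently from gene to gene. For CXCL3 in ovo, PLC/PRF/5 was highest at 142 ± 23.6 scaled CPM, HuH7 at 32.6 ± 11.2 and Hep3B at 27.2 ± 18.6 did not differ beyond their spread (adjusted p = 0.244), and HepG2 was lowest at 1.23 ± 0.354. In vitro, PLC/PRF/5 at 75.9 ± 15.5 and Hep3B at 64.0 ± 2.92 scaled CPM did not differ beyond theirs (adjusted p = 0.689). For CXCL5, HuH7 led in ovo, above Hep3B (log2 difference of Hep3B minus HuH7 -1.69 ± 0.312, adjusted p = 6.23e-05), while Hep3B led in vitro (2.01 ± 0.360, adjusted p = 7.52e-05). The response of CXCL5 in Hep3B differed from the mean of the other 3 lines by -3.75 ± 0.389 in log2 (adjusted p = 6.91e-08), and that of CXCL8 by -3.82 ± 0.223 (adjusted p = 3.76e-12). For CXCL5 that mean includes HepG2 and PLC/PRF/5, where it was hardly read and could not fall. For CXCL3 that difference was -2.59 ± 0.410 in Hep3B (adjusted p = 3.65e-05) and 1.57 ± 0.410 in HuH7 (adjusted p = 0.00698).

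The amplicons of CXCL1, CXCL2 and CXCL3 are close to one another, so reads could be shared and values of the 3 genes are uncertain to that extent. On GRCh38, to which all amplicon positions refer, the CXCL1 amplicon (chr4:73870583-73870663, exon 4, 3′ UTR) differs from CXCL2 transcripts by 2 of its 81 bases. That of CXCL3 (chr4:74038375-74038621, exons 1 and 2, 5′ UTR and coding) differs from CXCL2 by 4 of 149. The CXCL2 amplicon (chr4:74097712-74098654, exons 3 and 4, coding and 3′ UTR) is less alike, with 11 differences from CXCL1 in 114 bases. PLC/PRF/5 libraries had 0 reads of CXCL1 beside 59 to 116 of CXCL2. CXCL5 (chr4:73998216-73998493, exons 1 and 2) and CXCL8 (chr4:73741652-73742017, exons 2 and 3) lie in coding sequence and were at most 59.7% and 60% identical to transcripts of the other ELR members. The CXCL5 amplicon was 79.9% identical to CXCL6.

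The coding sequences read by the CXCL3 and CXCL5 amplicons are given, since in Hep3B these had a small and a large fall among the ELR genes. Capitals mark the codons of the ELR and CXC motif.
CXCL3: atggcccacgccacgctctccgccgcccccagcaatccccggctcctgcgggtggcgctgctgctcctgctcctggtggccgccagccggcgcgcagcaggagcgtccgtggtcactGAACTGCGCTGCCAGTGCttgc
CXCL5: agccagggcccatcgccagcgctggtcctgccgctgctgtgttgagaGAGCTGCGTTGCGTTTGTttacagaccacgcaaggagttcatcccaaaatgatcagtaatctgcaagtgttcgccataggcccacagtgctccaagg

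CCL22 had the largest change of any member and of any gene tested in PLC/PRF/5. This chemokine, best known from macrophages and dendritic cells, binds CCR4 on regulatory and type 2 helper T cells. It had 910, 335, 400 and 636 scaled CPM in the 4 PLC/PRF/5 tumours, against 1.96, 1.24 and 2.59 in the cultures, or 570 ± 260 and 1.93 ± 0.676. In reads that is 8978, 3992, 3527 and 5783 in tumours, against 20, 13 and 22 in cultures. The log2 fold change was 7.52 ± 0.259 (adjusted p = 3.65e-16), first of 13100 genes both in size and in p.

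In the other lines CCL22 was near the floor. HepG2 tumours averaged 0.510 ± 0.240 scaled CPM and its cultures 1.40 ± 0.708, with every tumour below every culture, but the difference was not called (log2 fold change -0.65 ± 0.259, adjusted p = 0.0704). Hep3B and HuH7 libraries had at most 2 reads, so no fold is given. The response in PLC/PRF/5 differed from the mean of the other 3 lines by 7.73 ± 0.299 in log2 (adjusted p = 5.52e-15). Tumours of the other 3 lines had at most 0.768 scaled CPM of CCL22. The summed level of 14 human leukocyte markers was 36.8 to 56.0 scaled CPM in PLC/PRF/5 tumours and 39.9 to 50.3 in cultures. The pan-leukocyte gene PTPRC was at 0 to 0.113 scaled CPM in the tumours and 0 to 0.0978 in the cultures, or 3 reads and 1 read in all. Which cells gave the CCL22 reads was not tested. The 4 tumours differed among themselves by more than the cultures did, yet leaving out any 1 of the 28 libraries kept the log2 fold change between 7.26 and 7.75.

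CCL20, which draws CCR6-bearing dendritic cells and T cells, went down in 3 lines. It had 12.96, 15.8, 5.52 and 13.4 scaled CPM in HepG2 tumours, against 79.0, 62.9 and 66.0 in cultures (log2 fold change -2.52 ± 0.268, adjusted p = 9.93e-08). It had 9.05, 6.04, 4.92 and 10.9 scaled CPM in Hep3B tumours, against 50.8, 42.1 and 48.2 in cultures (log2 fold change -2.51 ± 0.268, adjusted p = 5.74e-08). The fall was larger in HuH7, with 1.03, 1.61, 0.506 and 1.11 scaled CPM in tumours, against 42.8, 43.2 and 47.8 in cultures (log2 fold change -4.49 ± 0.268, adjusted p = 4.58e-12).

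In these 3 lines every tumour was below every culture, and the tumour numbered 3 was the lowest of its line. By size, CCL20 ranked 4 among the genes that were lower in HuH7 tumours. Its response there differed from the mean of the other lines by -2.99 ± 0.310 (adjusted p = 6.97e-08). That mean includes PLC/PRF/5, where CCL20 had at most 8 reads in a library. HepG2, Hep3B and HuH7 cultures were at 69.3 ± 8.54, 47.0 ± 4.44 and 44.6 ± 2.77 scaled CPM, and no pair of them was called (adjusted p = 0.0843 to 0.903). In ovo, HepG2 at 11.9 ± 4.45 and Hep3B at 7.72 ± 2.73 scaled CPM stood above HuH7 at 1.07 ± 0.454.

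PLC/PRF/5 had few reads of CCL20 in either setting, with 23 reads over the 4 tumours and 3 over the 3 cultures, a ratio per read of depth of 4.81 with an exact 95% counting interval of 1.45 to 25. That difference was not called in limma (log2 fold change 0.53 ± 0.268, adjusted p = 0.190), but it was in edgeR (adjusted p = 0.0118). CCL2, the monocyte attractant, was read in PLC/PRF/5 alone. It had 4, 9, 3 and 2 reads in the tumours, against 2, 3 and 0 in the cultures, or 0.430 ± 0.230 and 0.161 ± 0.146 scaled CPM. The other 21 libraries had 0 reads of CCL2, which allows up to 3 reads in each.

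The amplicons of CCL20 (chr2:227813976-227816345, exons 1 to 3) and CCL22 (chr16:57360446-57363513, exons 2 and 3) read coding sequence only, as does that of CCL2 (chr17:34255409-34256767, exons 1 to 3). The coding sequences of the CC members with the largest changes are given here, with the adjacent cysteine codons that name the family in capitals.
CCL20: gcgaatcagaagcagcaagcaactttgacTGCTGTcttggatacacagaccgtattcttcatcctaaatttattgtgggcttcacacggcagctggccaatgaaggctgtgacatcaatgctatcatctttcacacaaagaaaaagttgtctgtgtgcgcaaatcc
CCL22: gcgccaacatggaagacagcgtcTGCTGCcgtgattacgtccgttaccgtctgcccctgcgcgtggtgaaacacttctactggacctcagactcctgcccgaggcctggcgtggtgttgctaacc

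Of the membrane-anchored members, CXCL16 is described first. CXCL16, ligand of CXCR6 and a scavenger receptor for oxidised lipoprotein, fell in the same 3 lines as CCL20. It had 13.1, 18.2, 8.48 and 15.5 scaled CPM in HepG2 tumours, against 52.8, 50.6 and 47.2 in cultures (log2 fold change -1.83 ± 0.407, adjusted p = 0.00146). It had 19.1, 8.81, 2.33 and 9.25 scaled CPM in Hep3B tumours, against 31.1, 36.3 and 31.8 in cultures (log2 fold change -1.91 ± 0.407, adjusted p = 0.000467). HuH7 had the largest fall, with 6.30, 7.85, 2.70 and 13.8 scaled CPM in tumours, against 80.9, 80.7 and 84.5 in cultures (log2 fold change -3.43 ± 0.407, adjusted p = 4.28e-07).

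Tumours and cultures did not overlap for CXCL16 in any line. In PLC/PRF/5 the order was the other way, with 33.0, 31.3, 21.4 and 26.0 scaled CPM in tumours, against 14.4, 11.8 and 12.4 in cultures. That log2 fold change of 1.05 ± 0.407 was not called (adjusted p = 0.0781), although it was in DESeq2 (adjusted p = 0.0330) and in the fit of this line alone (adjusted p = 0.00479). The response of PLC/PRF/5 differed from the mean of the other lines by 3.44 ± 0.470 in log2 (adjusted p = 8.54e-06). In ovo PLC/PRF/5 had the highest level at 27.9 ± 5.26 scaled CPM, above each of the other lines (adjusted p = 0.000113 to 0.0283). In vitro HuH7 had the highest mean at 82.0 ± 2.14 scaled CPM. Its cultures were all above those of HepG2, at 50.2 ± 2.82. The limma test, which shares 1 estimate of spread over all 8 groups, did not call that difference (adjusted p = 0.208). The tumour numbered 3 was the lowest for CXCL16 in all 4 lines. Without those 4 libraries the log2 fold change was -3.09 in HuH7, -1.58 in HepG2, -1.48 in Hep3B and 1.17 in PLC/PRF/5, and all 4 passed (adjusted p = 8.62e-10 to 0.000692).

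CX3CL1, or fractalkine, the ligand of CX3CR1, rose in HuH7. It had 500, 545, 202 and 377 scaled CPM in HuH7 tumours, against 142, 146 and 146 in cultures (log2 fold change 1.39 ± 0.332, adjusted p = 0.00187). All tumours were above all cultures, with replicate 3 the lowest tumour, and without the tumours numbered 3 the log2 fold change was 1.68. The groups overlapped on total reads alone, and the call was lost once trends with GC content and length were removed (log2 fold change 0.81, adjusted p = 0.0816). In HepG2 it averaged 418 ± 150 scaled CPM in tumours and 387 ± 43.5 in cultures, with overlap (adjusted p = 0.955). In Hep3B it averaged 146 ± 54.2 scaled CPM in tumours and 94.0 ± 5.12 in cultures. That difference was not called (log2 fold change 0.54 ± 0.332, adjusted p = 0.178) and its direction depends on the scaling, since on total reads alone it was -0.43.

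**Figure D3:**
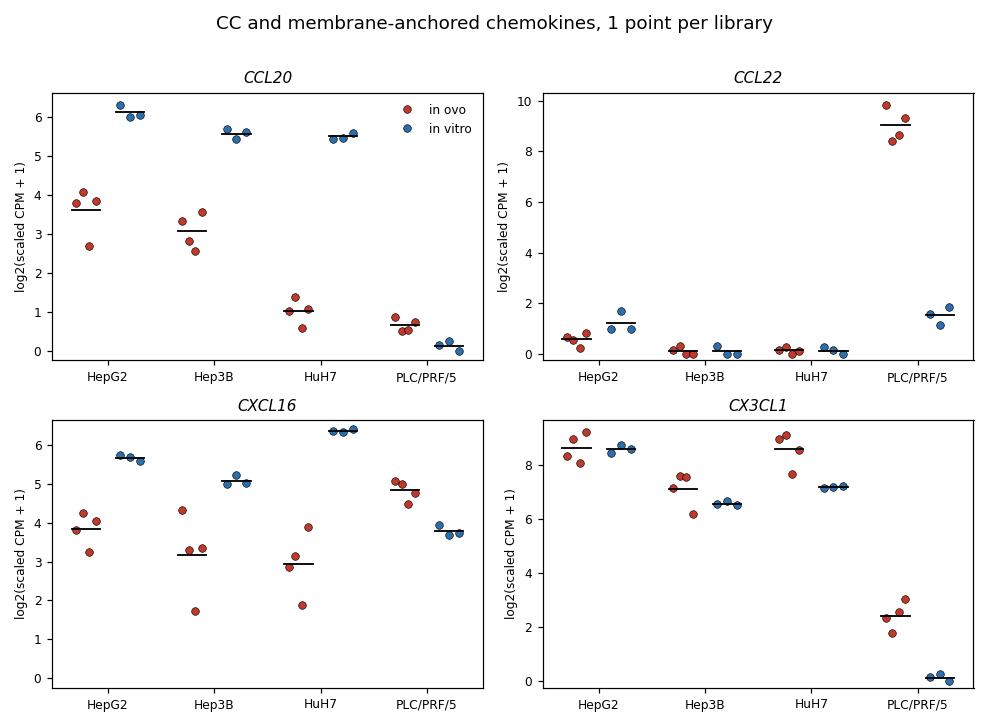
Levels of CCL20, CCL22, CXCL16 and CX3CL1 in each library as log2(scaled CPM + 1), by line, with tumours (in ovo, n = 4) to the left of cultures (in vitro, n = 3) and bars at group means. CCL20 and CXCL16 are lower in the tumours of HepG2, Hep3B and HuH7, and CCL22 is high in the PLC/PRF/5 tumours alone.

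In PLC/PRF/5 CX3CL1 was read at a low level. It had 4.05, 2.44, 4.87 and 7.14 scaled CPM in the tumours (40, 29, 43 and 65 reads), against 0.0978, 0.191 and 0 in the cultures (1, 2 and 0 reads). The ratio per read of depth was 37.0, with an exact 95% counting interval of 12.4 to 181, and limma called it (log2 fold change 2.30 ± 0.332, adjusted p = 1.56e-05). HepG2 tumours had CX3CL1 at 377 CPM before scaling, and the PLC/PRF/5 tumours read it at 1.41% of that level. Another 7 amplicons had over 200 CPM in HepG2 tumours, less than 10% of that in tumours of Hep3B and HuH7, and at most 3 reads over the PLC/PRF/5 cultures. The PLC/PRF/5 tumours read these at 0.884% to 1.7% of their HepG2 tumour level, with a median of 1.12%. Amplicons specific in the same way to HuH7 tumours, where CX3CL1 was also high, were read there at a median of 0.216%. Such reads were not confined to PLC/PRF/5. Hep3B tumours read amplicons chosen in the same way for HuH7 tumours at a median of 1.16%, and those for HepG2 tumours at 0.412%. The hepatocyte markers, too, summed to 844 to 2230 scaled CPM in PLC/PRF/5 tumours beside 164000 to 268000 in HepG2 tumours. With the share of other lines' tumours subtracted, the CX3CL1 reads were 5, 0, 9 and 1 and the difference was not called (log2 fold change 0.31, adjusted p = 0.607). How reads of HepG2 amplicons came to the PLC/PRF/5 tumour libraries, and their part in this difference, was not tested.

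CCL20 in PLC/PRF/5 tumours was at 6.21% of the HepG2 tumour level, but on 23 reads. The same subtraction left the log2 fold change of CCL22 in PLC/PRF/5 at 7.53. It took the CX3CL1 reads of the Hep3B tumours from 1310, 752, 712 and 313 to 1220, 670, 665 and 292. The CX3CL1 amplicon (chr16:57382917-57383027, exon 2) and that of CXCL16 (chr17:4735363-4738451, exons 3 and 4) read coding sequence.

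**Figure D4:**
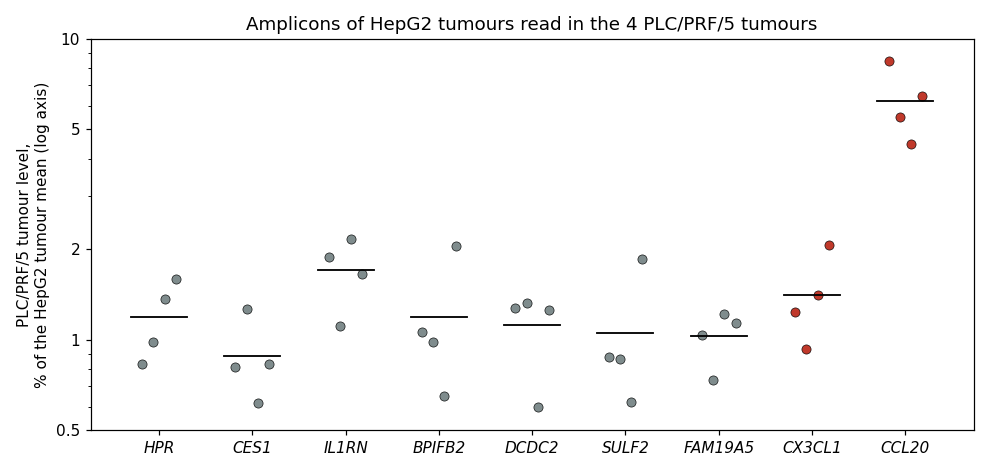
Level in each PLC/PRF/5 tumour (n = 4) as a percent of the HepG2 tumour mean, on a log axis, for the 7 amplicons high in HepG2 tumours (grey) and for CX3CL1 and CCL20 (red), with bars at the means. CX3CL1, at 1.41% on average, lies within the range of the 7 amplicons, and CCL20, at 6.21%, lies above it.

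Averaged over the 4 lines, 3 members rose (CXCL3, CCL22 and CX3CL1) and 5 fell (CXCL1, CXCL5, CXCL8, CCL20 and CXCL16), beside 33.7% and 32.6% of all genes. As every tested member's response differed between lines in the main fit, those means stand for no line in particular. CXCL8 had a mean log2 fold change of -1.68 ± 0.0967 (adjusted p = 1.49e-12) and CCL20 of -2.25 ± 0.134 (adjusted p = 2.54e-12). The mean rise of CXCL3, 0.45 ± 0.177 (adjusted p = 0.0277), was lost without culture replicate 2 of PLC/PRF/5 (adjusted p = 0.0512) and on total reads alone (adjusted p = 0.623).

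Of 36 other chemokines listed, 35 were on the panel and 12 were tested. In HuH7 tumours 5 rose and 0 fell. In Hep3B 4 rose and 3 fell, in HepG2 3 rose and 0 fell, and in PLC/PRF/5 0 rose and 1 fell. Of all 13100 genes, 23.6% rose and 19.8% fell in HuH7, and 24.6% and 27.4% in Hep3B. The shares were 12.1% and 13.0% in HepG2, and 11.9% and 5.61% in PLC/PRF/5. Counts in this and the following lists are to be read beside these shares, and several are near them. CXCL6, another ELR chemokine, averaged 2.75 ± 1.62 scaled CPM in Hep3B tumours and 43.1 ± 2.13 in cultures (log2 fold change -3.70 ± 0.340, adjusted p = 5.19e-09). In HuH7 it averaged 18.1 ± 9.74 scaled CPM in tumours and 6.93 ± 0.587 in cultures, and it rose (log2 fold change 1.10 ± 0.340, adjusted p = 0.0124, against 0.0569 on total reads alone). CXCL12, the ligand of CXCR4, averaged 649 ± 270 scaled CPM in Hep3B tumours and 103 ± 7.29 in cultures (log2 fold change 2.55 ± 0.232, adjusted p = 4.57e-09). XCL1 and XCL2, which attract cross-presenting dendritic cells, rose in HepG2, Hep3B and HuH7, but on total reads alone neither passed in Hep3B, where XCL1 was then at -0.09 (adjusted p = 0.715) and XCL2 at 0.33 (adjusted p = 0.233). Their amplicons differ from each other's transcripts by 1 or 2 bases, so reads of the pair may be shared.

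Of 22 receptors 7 were tested. Of these, 2 rose and 1 fell in Hep3B tumours, 1 rose and 1 fell in HuH7, 1 rose and 0 fell in PLC/PRF/5, and 0 rose and 1 fell in HepG2. On total reads alone 3 fell in HepG2, CCR6 among them (adjusted p = 0.0418), and 1 fell in PLC/PRF/5 both on total reads alone and with DESeq2 size factors. The ELR receptors CXCR1 and CXCR2 had at most 5 and 3 reads in any library, CX3CR1 at most 3, CXCR6 at most 2 and CCR4 at most 4, so none passed the filter. CCR6, receptor of CCL20, averaged 118 ± 16.3 scaled CPM in Hep3B tumours and 5.80 ± 0.694 in cultures (log2 fold change 4.13 ± 0.281, adjusted p = 2.35e-11). In HuH7 it averaged 4.27 ± 2.41 scaled CPM in tumours and 44.6 ± 1.65 in cultures (log2 fold change -3.23 ± 0.281, adjusted p = 2.67e-09). CCL20 fell in both of these lines, so its receptor's amplicon moved with it in HuH7 and against it in Hep3B.

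CXCR4 was called in every line but not in 1 direction. It averaged 3.75 ± 2.83 scaled CPM in Hep3B tumours and 35.9 ± 0.576 in cultures (log2 fold change -3.25 ± 0.452, adjusted p = 2.90e-06), and it also fell in HepG2 (-1.42 ± 0.452, adjusted p = 0.0219). It averaged 180 ± 52.7 scaled CPM in HuH7 tumours and 31.0 ± 1.79 in cultures (log2 fold change 2.45 ± 0.452, adjusted p = 0.000148). Its PLC/PRF/5 levels averaged 78.7 ± 30.9 scaled CPM in tumours and 5.97 ± 0.796 in cultures (log2 fold change 3.40 ± 0.452, adjusted p = 4.91e-06).

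All 16 NF-kB subunits and inhibitors listed were tested. In HuH7 tumours 7 rose and 1 fell, with a median log2 fold change of 0.61. In PLC/PRF/5 tumours 6 rose and 2 fell, with a median of 0.60. In Hep3B 2 rose and 7 fell (median -0.30), or 0 and 14 on total reads alone, and in HepG2 1 rose and 4 fell (median -0.05). TNFAIP3, an NF-kB target that restrains the pathway, averaged 165 ± 67.4 scaled CPM in HuH7 tumours and 21.5 ± 4.38 in cultures (log2 fold change 2.81 ± 0.331, adjusted p = 3.93e-07). It also rose in Hep3B, where 4 of the 5 ELR genes fell, to 128 ± 37.3 scaled CPM in tumours, against 52.3 ± 2.21 in cultures (log2 fold change 1.23 ± 0.331, adjusted p = 0.00359). On total reads alone that difference was 0.26 and did not pass (adjusted p = 0.282). Other genes of this list fell in Hep3B, BIRC3 (-1.49 ± 0.228, adjusted p = 1.13e-05) and NFKBIB (-1.42 ± 0.329, adjusted p = 0.00101) among them. BIRC3 rose in HepG2 (1.47 ± 0.228, adjusted p = 2.55e-05) and HuH7 (1.10 ± 0.228, adjusted p = 0.000502). RELB, a subunit of the noncanonical branch, rose in HuH7 (1.97 ± 0.397, adjusted p = 0.000366) and PLC/PRF/5 (1.67 ± 0.397, adjusted p = 0.00398). CHUK, which encodes the kinase IKK-alpha, fell in Hep3B (-1.66 ± 0.388, adjusted p = 0.00110) and HuH7 (-1.52 ± 0.388, adjusted p = 0.00323).

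Of 22 cytokines and receptors upstream of NF-kB, 18 were tested. In HuH7 tumours 7 rose and 0 fell, and in PLC/PRF/5 5 rose and 1 fell. The number that rose in PLC/PRF/5 was 7 on total reads alone, 3 with DESeq2 size factors and 2 with the share of other lines' tumours subtracted. In Hep3B 5 rose and 2 fell, and in HepG2 4 rose and 4 fell. TLR2, a receptor for bacterial lipoproteins, averaged 35.5 ± 19.1 scaled CPM in HepG2 tumours and 1.14 ± 0.450 in cultures (log2 fold change 3.99 ± 0.278, adjusted p = 7.44e-11), and it also rose in Hep3B and HuH7. In PLC/PRF/5 it had 33 reads over the tumours and 0 over the cultures (adjusted p = 0.0335, or 0.0523 with DESeq2 size factors). Those tumours read TLR2 at 3.36% of the HepG2 tumour level, and with the share of other lines' tumours subtracted the difference was not called (adjusted p = 0.17). IL1RAP, the shared chain of interleukin 1 receptors, was called higher in all 4 lines, with log2 fold changes of 0.93 in PLC/PRF/5 to 2.41 in HuH7. That call was lost in PLC/PRF/5 with DESeq2 size factors (adjusted p = 0.0867) and after that subtraction (adjusted p = 0.0723), and in Hep3B on total reads alone (adjusted p = 0.154). Other receptors fell in HepG2, TNFRSF1A (-2.62 ± 0.824, adjusted p = 0.0209) and LTBR (-1.77 ± 0.207, adjusted p = 4.46e-07). Neither was called in another line in the main fit. TNFSF10 rose in HepG2, Hep3B and HuH7, by 1.18 in HuH7 to 4.17 in Hep3B. TNFRSF1B rose in PLC/PRF/5 (1.94 ± 0.257, adjusted p = 4.73e-06). Both sheddases were tested, and 1 fell and 0 rose in each of HepG2, Hep3B and HuH7, against 0 in either direction in PLC/PRF/5. ADAM10 fell in HepG2 (-1.43 ± 0.496, adjusted p = 0.0362), Hep3B (-1.72 ± 0.496, adjusted p = 0.00603) and HuH7 (-1.95 ± 0.496, adjusted p = 0.00317). Levels in PLC/PRF/5 averaged 81.9 ± 19.8 scaled CPM in tumours and 118 ± 5.30 in cultures (log2 fold change -0.56 ± 0.496, adjusted p = 0.499). ADAM17 was not called in any line, with log2 fold changes of -0.26 to -0.06 (adjusted p = 0.295 to 0.823). On total reads alone it was lower in Hep3B (-1.03, adjusted p = 7.64e-05) and HuH7 (-0.51, adjusted p = 0.034).

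**Figure D5:**
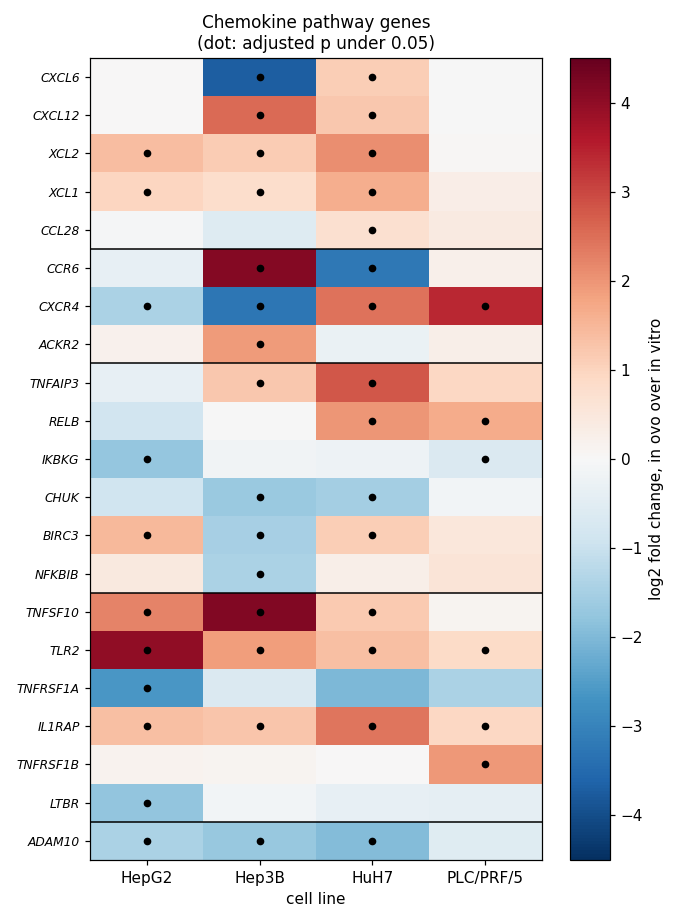
Log2 fold change, in ovo over in vitro, of the named genes of 5 lists in each line, with the lists set apart by lines (from the top, other chemokines, receptors, NF-kB, upstream cytokines and receptors, and sheddases). Dots mark an adjusted p under 0.05. CCR6 and CXCR4 take opposite colours in Hep3B and HuH7.

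Leukocyte markers were taken as a group. Their summed level was 10.3 to 67.5 scaled CPM in HepG2 tumours and 388 to 405 in cultures. It was 8.10 to 11.9 in HuH7 tumours and 38.7 to 43.2 in cultures, and 11.6 to 37.7 in Hep3B tumours and 32.2 to 34.3 in cultures. Of the 14 genes, 5 to 6 in these tumours and 6 to 8 in these cultures were at 0 in every library, PTPRC among them in HepG2. The 8 endothelial markers summed to 49.1 to 58.8 scaled CPM in HepG2 tumours and 8.57 to 11 in cultures, and to 7.77 to 11 in Hep3B tumours and 1.34 to 2.05 in cultures. They summed to 2.27 to 6.91 in PLC/PRF/5 tumours and 0.236 to 0.859 in cultures, but to 5.74 to 21 in HuH7 tumours and 21.3 to 23.3 in cultures. Most of the HepG2 sum was PECAM1, at 47.3 ± 3.53 scaled CPM in tumours and 8.35 ± 1.17 in cultures, and 4 of the 8 markers were at or under the floor in those tumours.

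The 9 fibroblast markers summed to 275 to 508 scaled CPM in Hep3B tumours and 104 to 106 in cultures, and to 553 to 864 in HuH7 tumours and 353 to 372 in cultures. The order was the other way in HepG2, with 4.16 to 4.77 in tumours and 18.6 to 22 in cultures, and in PLC/PRF/5, with 59.9 to 89.5 in tumours and 140 to 190 in cultures. Leukocyte and fibroblast markers were read in the cultures of all 4 lines too, so these sums do not tell whether cells of a type were present. Host cells in these tumours would be those of the chick embryo, and whether the human amplicons read chick RNA was not tested. Any part of such cells in the chemokine results was not tested either.

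The genes most like each member over all 28 libraries are given as a description, by Pearson's r of log2(scaled CPM + 1) with points that share lines and settings. For CCL22 the closest was FXYD4 (r = 0.974), for CX3CL1 WASF3 (r = 0.987), for CXCL5 SYT12 (r = 0.981), for CXCL3 PAK6 (r = 0.958) and for CXCL1 SLC34A2 (r = 0.956). CCL20 was closest to MGAT4A (r = 0.946), CXCL2 to FGF2 (r = 0.939), CXCL8 to GNB4 (r = 0.911) and CXCL16 to PLOD2 (r = 0.876). SOSTDC1 was among the 3 closest to both CXCL1 (r = 0.945) and CXCL5 (r = 0.970).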

How the data were processed

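The authors deposited 1 table with a signal per amplicon and library, which they had scaled to a sum of 500000 in each library although it is named as counts. Multiplied by 2 this deposited signal is CPM. The submitters' processing notes name the build hg38, with the aligner and counting rules not given in the sources used here. Low values rise in equal steps. Whole reads were recovered from these steps, with 99.9565% or more of a library's values within 0.01 of a whole read. 1 damaged cell (KRT18) was filled from its library's total.

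TMM factors and the low-value filter (10 reads) came from edgeR 4.0.16. limma 3.58.1 (R 4.3.3) with trended variance was fitted to log2(CPM + 1) of all 28 libraries as 8 groups, which leaves 20 degrees of freedom. P values are two-sided and Benjamini-Hochberg adjusted over 13100 genes, and 5861 genes did not pass the filter. The recovered reads also went to edgeR's quasi-likelihood test, which called 5206 genes for HuH7, 6280 for Hep3B, 3153 for HepG2 and 2244 for PLC/PRF/5, and to DESeq2 1.42.0. Further alternatives were scaling, filters, pseudocounts, amplicon GC content and length, a replicate block, single lines and libraries left out. The subtraction of other lines' tumours, and all alternatives for the pathway lists, were chosen after seeing the data. For the subtraction, amplicons over 200 CPM in 1 line's tumours and with at most 3 reads over the other line's cultures gave the share subtracted. The fit was tested on simulated data.

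Amplicons were placed by exact match on GENCODE 29 transcripts, with exon numbers of 1 matched transcript. Counting intervals are exact and conditional on the summed reads.

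The members and gene lists were chosen with earlier results of these data known. All 10 members are named. From each pathway list up to 6 genes could be named, those called in at least 1 line with a mean of 10 CPM or more in some group, the largest changes first. Receptors of the members that did not pass the filter and ADAM17 were named for their role after their values were seen. The 3 genes most like each member were ranked by Pearson's r. Markers are given as list sums, with a few defining genes by name.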

Additional observations from a re-analysis of the deposited data

Results flagged for a closer look

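The response to growth in ovo differed between lines for each of the 9 members tested, by limma's test of the line by condition interaction. The adjusted p was 2.08e-14 for CCL22, 9.32e-12 for CXCL8, 1.69e-09 for CCL20, 5.96e-09 for CXCL1 and 3.84e-07 for CXCL5. It was 7.9e-06 for CXCL16, 0.000107 for CXCL3, 0.00114 for CXCL2 and 0.00183 for CX3CL1. Over all genes 41.8% passed the same test. Part of such a result can come from lines where a member is hardly read and cannot fall, as with CXCL1 and CXCL5 in HepG2 and PLC/PRF/5. The value for CX3CL1 includes the PLC/PRF/5 tumours, whose reads of this gene stood at 1.41% of the HepG2 tumour level. Within the groups of 4 tumours, 30 sets of values with more than 3 reads in some library were checked for a library far from the others, and 0 were found.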

How the results depend on the processing

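Most member results kept their direction and call. Of the called fold changes, 343 values under the other settings kept both and 12 lost the call, and with 1 library left out 727 kept both and 1 lost the call. The calls lost were those named in the report (CXCL1, CXCL3 and CX3CL1 in HuH7, CX3CL1 in PLC/PRF/5) and, for the mean of lines, CXCL3 under 4 settings and without 1 library, and CXCL1 and CXCL5 in count tests.

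The count of members called in HepG2 was 5 with a pseudocount of 0.25, against 3. In PLC/PRF/5, against 2, it was 4 with a pseudocount of 5, in DESeq2 and with GC and length trends removed. There it was 5 without the 4 tumours numbered 3 and with each line fitted alone, and 1 with the share of other lines' tumours subtracted. With 1 library left out it was 2 to 4 in PLC/PRF/5, 4 without Hep3B tumour 1 or 3. Genes called in PLC/PRF/5 were 1431 to 2841 with 1 library left out (1431 without culture 2), against 2292. They were 3822 without the tumours numbered 3 and 3723 with each line alone, where HuH7 had 3733, against 5688.

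Only uncalled fold changes turned. On total reads alone CX3CL1 was -0.19 in HepG2 and -0.43 in Hep3B, CXCL5 in HuH7 -0.24, CXCL8 in PLC/PRF/5 -0.099 and CXCL2 in the mean of lines -0.044. With GC and length trends removed CX3CL1 was -0.23 in HepG2 and -0.35 in Hep3B, and CXCL5 in HuH7 -0.083. CXCL5 in HuH7 was also -0.31 without the tumours numbered 3 and -0.078 with the line alone. With 1 library left out it was -0.30 to 0.30, and CX3CL1 in HepG2 was -0.14 to 0.24. The causes were not tested.

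Total reads alone moved the median of all genes by -0.82 in Hep3B and -0.20 to -0.22 in the other lines. The share of calls that were higher was then 15.0% in Hep3B, against 47.3%, 36.6% in HepG2, against 48.3%, 51.5% in PLC/PRF/5, against 67.9%, and 29.2% for the mean of lines, against 50.8%. With DESeq2 size factors it was 52.9% in PLC/PRF/5.

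Whether replicate numbers pair the libraries cannot be told from the values, and the main fit used no pairing. Same-number pairs correlated at -0.0955 to 0.457, with 5 of 12 over 0.1, and pairs of different numbers reached 0.344. The fit with a replicate block called 7 members in HuH7, 6 in Hep3B, 3 in HepG2 and 3 in PLC/PRF/5, where CXCL3 was added. The interaction was called for 8 members, against 9, with a pseudocount of 5 and with the share of other lines' tumours subtracted. It was not run in DESeq2. At the depths here, levels under 3 reads a library cannot be told from 0.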
